A study of Mus musculus with 6 samples.

Results

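The genes described here are 46 type I interferon-stimulated genes of the mouse, effectors and sensors that cells make in response to interferon. They were taken by gene symbol from a written list, and all 46 were found among the 24346 gene symbols measured. The RNA came from follicular (Fo) B cells of the spleen, taken at an age of 8 weeks and sequenced as 3 libraries from G9gl mice and 3 from WT mice. G9gl mice are homozygous for a knock-in of antibody heavy and light chain genes, in the germline form that preceded an anti-double-stranded DNA antibody from a lupus patient. WT mice are B6 controls without the knock-in. Both groups were sorted with the same gate, as cells that carry B220, lack CD93 and stain low for CD21 and high for CD23, and the study asked what sets apart the anergic state of G9gl B cells. Whether libraries 1 to 3 of each genotype stem from different mice is not in the labels. The p-values therefore reflect the spread between libraries alone, and that spread may be technical.

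Type I interferons bind a receptor made of IFNAR1 and IFNAR2. The kinases JAK1 and TYK2 on that receptor activate transcription factors that bind a DNA element called the interferon-stimulated response element (ISRE). The genes switched on this way encode proteins that bind viral nucleic acids, modify proteins, block viral entry or release, and feed back on the pathway. Interferon gamma acts mainly at another element, the gamma-activated site (GAS), and many genes respond to both.

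Of the 46 genes, 44 reached the level needed for a test, which was 1 FPKM (fragments per kilobase of transcript and per unit of mapped fragments in the library) in 3 of the 6 libraries. Under limma with Benjamini-Hochberg adjustment over all 10122 tested genes, at an adjusted p under 0.05, 27 of the 44 were higher in G9gl, 1 was lower and 16 did not pass. Among all tested genes 11.8% were called higher, 11.6% lower and 23.4% either way. The median log2 fold change of the 44 was 0.63, beside -0.0022 for all tested genes, and 43 of the 44 had a positive value. The 27 called higher ranged from 1.298-fold for Ifi35 to 5.17-fold for Ifitm3; 12 were at least 2-fold, 12 lay between 1.5-fold and 2-fold, and 3 were under 1.5-fold. In 30 of the 44 every G9gl library lay above every WT library, and in 1 every G9gl library lay below, beside 20.3% and 20.5% of all tested genes. All fold changes were computed after adding 1 to each FPKM value, on a log2 scale, and so come out too small for genes of low level. In bulk samples such as these, fewer cells of a type and less RNA per cell cannot be told apart.

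The G9gl libraries were not alike for these genes. Relative to the WT mean, the median log2 level of the 44 genes was 0.32 in G9gl library 1, 0.81 in library 2 and 0.78 in library 3, while the WT libraries lay between -0.01 and 0.03. Of all 10122 tested genes, 6653 were at or below the highest WT library in G9gl library 1, and libraries 2 and 3 were not counted this way. Levels above every WT library were seen for 30 of the 44 genes in G9gl library 1, for 42 in library 2 and for 40 in library 3. Most genes below are therefore given by library, and calls gained or lost when G9gl library 1 was left out are given both ways. That library was singled out after its low values for these genes were seen. Adjusted p-values without it therefore favour a call and serve as description only. The plot of levels by library shows this spread for every gene.

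**Figure D1:**
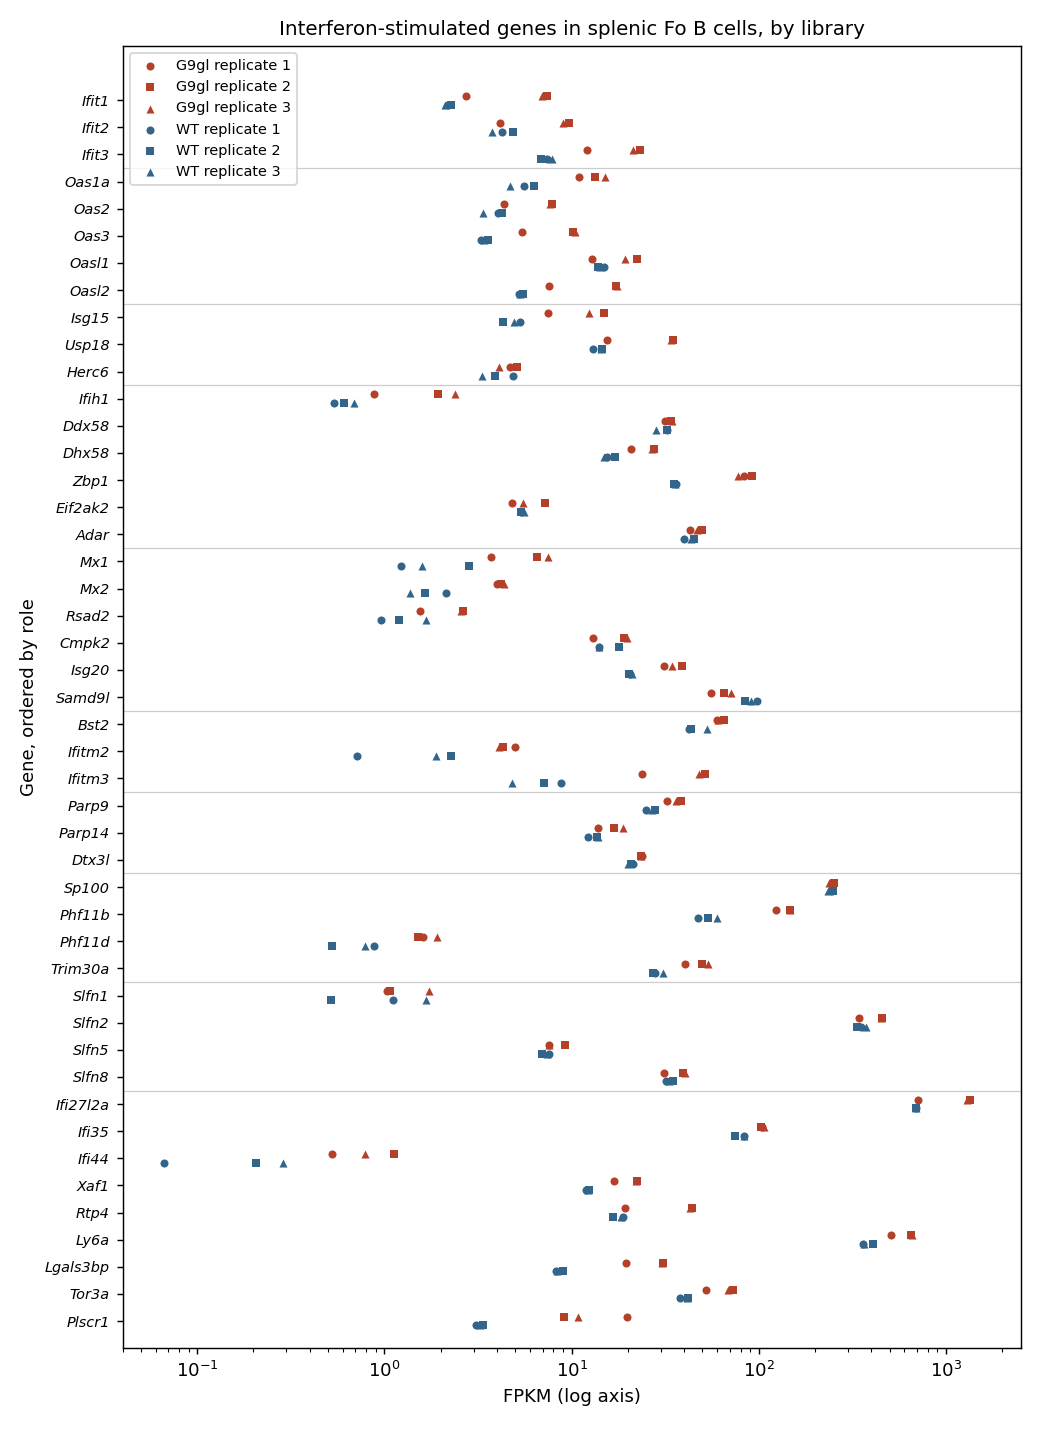
FPKM of the 46 interferon-stimulated genes on a log axis, with 1 row per gene in order of role and 1 point per library (red, 3 G9gl libraries; blue, 3 WT libraries; the marker shape gives the library number). The red points lie right of the blue ones for Ifitm3, Zbp1, Phf11b and Lgals3bp, the red circle of G9gl library 1 lies near the blue points for Usp18, Rtp4 and Ifi27l2a, and Samd9l has its red points on the left.

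The sorted cells carried the RNA of B cells in both groups. The summed level of 9 B cell markers was 7813 to 8205 FPKM in G9gl and 8588 to 8869 FPKM in WT, and 1 was called higher and 5 lower. The calls with the smallest p were Cr2 (2.13-fold lower), Ms4a1 (1.34-fold lower), Fcer2a (1.19-fold lower) and Cd22 (1.19-fold higher). The summed level of 18 macrophage markers was 59.7 to 66.2 FPKM in G9gl and 23.5 to 29.8 FPKM in WT; 9 of the 11 tested were called higher, among them C1qc (2.98-fold), C1qb (3.01-fold), Vcam1 (1.93-fold) and Lyz2 (1.89-fold). Of the 18, 6 were under 1 FPKM in every library, Cd163 and Fcgr1 included. Both this sum and the median of the interferon-stimulated genes were higher in every G9gl library than in every WT library; within G9gl, library 1 had the highest sum and the lowest median. Of 8 markers of plasmacytoid dendritic cells, a main source of type I interferon, 5 were under 1 FPKM in every library, and Siglech did not exceed 0.0857 FPKM in any. Of the 3 tested, Lag3 was called higher, with 1.45, 2.19 and 2.19 FPKM in G9gl, against 0, 0 and 0.0548 FPKM in WT, and the sum of the list, nearly all of it Pld4, was 168 to 215 FPKM in G9gl and 165 to 183 FPKM in WT. Conventional dendritic cell markers summed to 7.04 to 7.85 FPKM in G9gl and 2.26 to 4.04 FPKM in WT, and neutrophil markers to 14.9 to 34.7 FPKM in G9gl and 2.11 to 7.78 FPKM in WT. Zbtb46 (2.09-fold) and Cd209a (1.88-fold) of the first list and S100a8 (4.23-fold) of the second were called higher. T and NK cell markers summed to 92.3 to 115 FPKM in G9gl and 38.2 to 47.0 FPKM in WT, nearly all of it Lck, which was called higher (2.61-fold). Cd3g and Cd8b1 of this list were tested and not called. The 6 others, Cd3e, Cd3d and Cd4 among them, did not reach the level for a test. Plasma cell markers summed to 143 to 152 FPKM in G9gl and 128 to 142 FPKM in WT, most of it Xbp1, which was not called. Of the 4 tested, Jchain (4.58-fold; 5.43, 6.27 and 6.98 FPKM in G9gl, against 0.529, 0.795 and 0.414 FPKM in WT) and Sdc1 (1.85-fold) were higher and Irf4 was lower (1.44-fold). The part of these other cells in the results below was not tested.

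Promoter sequence is shown for 7 genes: Ifit1, Ifit3, Oas1a, Isg15 and Bst2, which were called higher and have 2 or more copies of the element searched, Phf11b, which was called higher and has 1, and Slfn8, which has 1 and was not called. Oas3, Ifitm2 and Trim30a were also called higher with 1 copy before the start site, and Ifitm3 with 2 copies after it. Rsad2 and Slfn5, which were not called, have 1 copy before the start site. Ddx58 and Eif2ak2, not called, and Ifih1, not tested, have 1 after it. The stretches of these genes are not printed. Windows from 250 bases before to 50 bases after the start site were read from a set of RefSeq promoters (GRCm38.p6). The set used here held 34 of the 46 genes by symbol. The core of the ISRE was searched as GAAANNGAAA on both strands, so that it reads TTTCNNTTTC on the other one. The capitals mark every such core in the stretch, and runs of capitals longer than 10 bases are cores that overlap. Each stretch ends before the start site and is written 5′ to 3′ in the direction of the gene.
Ifit1 (chr19:34640755-34640843, plus strand): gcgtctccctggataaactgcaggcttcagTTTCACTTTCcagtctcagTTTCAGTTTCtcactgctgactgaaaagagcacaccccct
Ifit3 (chr19:34583343-34583446, plus strand): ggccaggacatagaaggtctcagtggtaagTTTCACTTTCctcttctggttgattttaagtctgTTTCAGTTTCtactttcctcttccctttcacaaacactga
Oas1a (chr5:120907526-120907575, minus strand): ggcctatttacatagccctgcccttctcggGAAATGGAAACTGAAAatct
Isg15 (chr4:156200845-156200926, minus strand): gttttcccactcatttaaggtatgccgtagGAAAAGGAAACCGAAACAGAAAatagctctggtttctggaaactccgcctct
Bst2 (chr8:71537557-71537632, minus strand): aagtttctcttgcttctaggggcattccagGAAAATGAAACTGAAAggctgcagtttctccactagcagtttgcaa
Phf11b (chr14:59341341-59341410, minus strand): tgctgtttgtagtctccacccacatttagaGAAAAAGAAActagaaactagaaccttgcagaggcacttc
Slfn8 (chr11:83020819-83020888, minus strand): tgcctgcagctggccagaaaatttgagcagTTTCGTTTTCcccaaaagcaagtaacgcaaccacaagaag
Ifit1 and Ifit3, neighbours on chromosome 19, each have a pair of cores in the reverse orientation with the same letters. Isg15 has 3 cores, and Oas1a and Bst2 have 2 each, in 1 run. An ISRE core was present in 16 of the 34 genes (47.1%), against 299 of 7811 tested genes with a window (3.83%) and 1079 of all 27025 genes in the promoter table (3.99%). Among those called higher it was present in 10 of 17 (58.8%), and among those not called in 5 of 14 (35.7%). These 17 were of 27 genes called higher and the 14 of 16 not called, so windows were missing unevenly. Per window rather than per gene the shares were 42.9% of 42 windows for these genes and 3.44% of all 32851 windows. The GAS, searched as TTCNNNGAA, which reads the same on both strands and was counted with or without overlap with a core, was present in 9 of the 34 genes (26.5%), against 8.32% of tested genes. These letters are a description of the window and do not show binding, and the genes were chosen as interferon-stimulated genes.

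**Figure D2:**
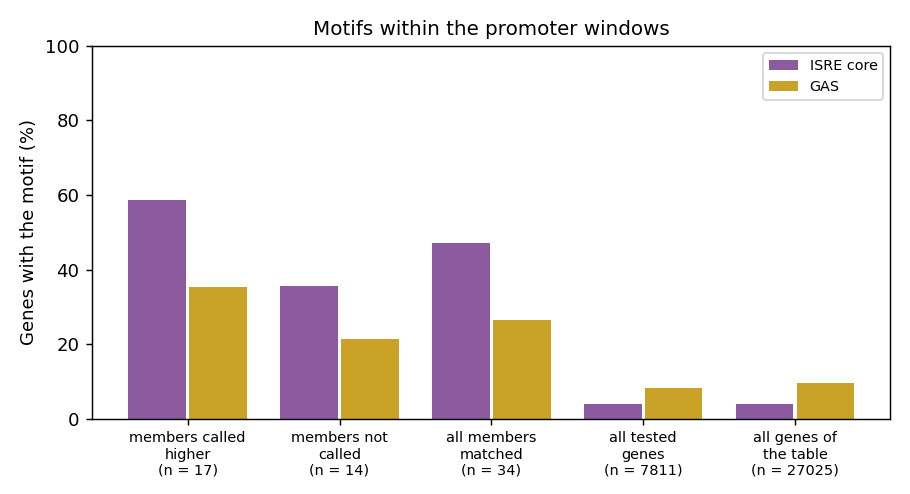
Share of genes, in percent, with at least 1 ISRE core (purple) or GAS (yellow) in the window of 300 bases at the start site, for the interferon-stimulated genes called higher in G9gl, those not called, all 34 with a window, all tested genes and all genes in the table (n under each pair of bars). The ISRE core was present in 58.8% of those called higher, 35.7% of those not called and 3.83% of tested genes.

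The IFIT proteins bind foreign RNA and hold back its translation, and 2 of the 3 tested were higher in G9gl. Their genes lie together on chromosome 19 (34550694 to 34650009 in mm10). Ifit3 had 12.1, 23.3 and 21.3 FPKM in G9gl libraries 1 to 3, against 7.39, 6.85 and 7.85 FPKM in WT libraries 1 to 3. Its groups did not overlap, and library 1 was the lowest of the G9gl libraries; the log2 fold change was 1.20 ± 0.20 (SE), or 2.304-fold (limma adjusted p = 0.00244). Ifit1 had 2.74, 7.44 and 6.91 FPKM in G9gl, against 2.199, 2.27 and 2.12 FPKM in WT, with G9gl library 1 just above the WT libraries (log2 fold change 0.98 ± 0.27, limma adjusted p = 0.0272). Ifit2 had 4.15, 9.66 and 9.01 FPKM in G9gl, against 4.25, 4.86 and 3.76 FPKM in WT. There G9gl library 1 lay among the WT libraries while libraries 2 and 3 lay above them, and the difference did not pass (log2 fold change 0.64 ± 0.24, limma adjusted p = 0.0915). Without G9gl library 1, Ifit2 passed at a log2 fold change of 0.97 (limma adjusted p = 6.46e-04). The call of Ifit1 was lost when any 1 of the other 5 libraries was left out instead (limma adjusted p 0.0738 to 0.088).

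Oligoadenylate synthetases, when bound to double-stranded RNA, make a second messenger that activates RNase L, and 4 of the 5 tested were higher in G9gl. Oas1a, the most even of these, had 10.9, 13.4 and 15.2 FPKM in G9gl libraries 1 to 3, against 5.55, 6.301 and 4.69 FPKM in WT libraries 1 to 3. All G9gl libraries were above all WT libraries, by 2.17-fold (log2 fold change 1.12 ± 0.14, limma adjusted p = 4.48e-04). Oas3 rose 2.12-fold, with 5.43, 10.2 and 10.5 FPKM in G9gl, against 3.303, 3.59 and 3.41 FPKM in WT (limma adjusted p = 0.00453). Oas2 was the smallest change among those called, with 4.34, 7.86 and 7.699 FPKM in G9gl, against 4.04, 4.24 and 3.37 FPKM in WT. Here the G9gl library 1 exceeded the highest WT library only slightly, and the call at 1.53-fold (limma adjusted p = 0.0447) was lost without any 1 of the other 5 libraries (limma adjusted p 0.0832 to 0.139) and with FPKM rescaled to a common total. Any reads that match more than 1 gene of a family (Ifit, Oas, Mx, Ifitm, Phf11 and Slfn genes) may have been split by the authors' counting. How alike the genes of each family are was not examined, so how far this touches their single levels is not known. Oas1a, Oas2 and Oas3 lie together on chromosome 5 (120730333 to 120907521), and all 3 were called.

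The synthetase-like proteins of the family carry ubiquitin-like domains. Oasl2 had 7.59, 17.3 and 17.4 FPKM in G9gl libraries 1 to 3, against 5.24, 5.53 and 5.32 FPKM in WT libraries 1 to 3. It was 2.24-fold higher (log2 fold change 1.16 ± 0.25, limma adjusted p = 0.00977), and libraries 2 and 3 of G9gl stood well above library 1; with no filter on low values the call was lost (limma adjusted p = 0.0573). Its neighbour Oasl1, which restrains translation of Irf7 mRNA, had 12.8, 22.4 and 19.2 FPKM in G9gl, against 14.9, 13.9 and 14.2 FPKM in WT. G9gl library 1 was below every WT library and the other G9gl libraries were above every one; the difference did not pass (log2 fold change 0.29 ± 0.16, limma adjusted p = 0.241) unless library 1 was left out (log2 fold change 0.51, limma adjusted p = 0.00475).

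ISG15 is a ubiquitin-like protein that is joined to other proteins, and USP18 removes it and also damps signalling at the interferon receptor. Isg15 had 7.45, 14.9 and 12.3 FPKM in G9gl libraries 1 to 3, against 5.31, 4.28 and 4.93 FPKM in WT libraries 1 to 3. Every G9gl library was above every WT library, at 2.08-fold overall (log2 fold change 1.06 ± 0.20, limma adjusted p = 0.00514). Usp18 had 15.5, 34.8 and 34.1 FPKM in G9gl, against 13.1, 14.5 and 14.3 FPKM in WT. In G9gl libraries 2 and 3 it was well over the WT level, while library 1 was just above the highest WT library; the call at 1.84-fold (limma adjusted p = 0.033) was lost when any 1 of the other 5 libraries was left out (limma adjusted p 0.077 to 0.101). Herc6, an ISG15 ligase in mouse, had 4.696, 5.11 and 4.09 FPKM in G9gl, against 4.86, 3.92 and 3.33 FPKM in WT. Its groups overlapped, and the difference did not pass (log2 fold change 0.17 ± 0.14, limma adjusted p = 0.417).

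Of the nucleic acid sensors and RNA-binding enzymes, 2 of the 5 tested were higher in G9gl. Zbp1, a sensor of Z-form nucleic acid that can start necroptosis, had 83.2, 91.7 and 77.9 FPKM in G9gl libraries 1 to 3, against 35.99, 35.2 and 35.9 FPKM in WT libraries 1 to 3. The G9gl libraries were close to each other and well above WT (log2 fold change 1.21 ± 0.07, 2.32-fold, limma adjusted p = 5.66e-06). Dhx58, which encodes the RIG-I-like protein LGP2, had 20.9, 27.6 and 27.05 FPKM in G9gl, against 15.6, 17.1 and 14.9 FPKM in WT, and rose 1.54-fold (limma adjusted p = 0.00343). Ifih1, which encodes the RNA sensor MDA5, stayed under the level needed for a test. It had 0.886, 1.94 and 2.37 FPKM in G9gl, against 0.5398, 0.608 and 0.685 FPKM in WT, so that the groups did not overlap at these low values.

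The other sensors did not pass the test. Ddx58, which encodes RIG-I, had 31.6, 33.98 and 34.2 FPKM in G9gl, against 32.2, 32.3 and 28.4 FPKM in WT (limma adjusted p = 0.358). Adar, which edits adenosine in double-stranded RNA, had 42.95, 49.6 and 46.7 FPKM in G9gl, against 39.8, 45.3 and 43.3 FPKM in WT (limma adjusted p = 0.315). Eif2ak2, which encodes the kinase PKR that shuts down translation, had 4.804, 7.21 and 5.49 FPKM in G9gl, against 5.37, 5.396 and 5.58 FPKM in WT (limma adjusted p = 0.746). Groups overlapped for all 3, and the sign of their small differences turned when FPKM was rescaled to a common total.

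Mx genes encode GTPases that can trap viral particles, and both were higher in G9gl. Many inbred mouse strains carry defective alleles of them, and the annotation of the reference build lists Mx2 as a polymorphic pseudogene. Mx1 had 3.73, 6.52 and 7.501 FPKM in G9gl libraries 1 to 3, against 1.23, 2.83 and 1.595 FPKM in WT libraries 1 to 3. The groups did not overlap, although WT library 2 was above the other WT libraries (log2 fold change 1.26 ± 0.25, 2.39-fold, limma adjusted p = 0.00622). Mx2 had 3.98, 4.21 and 4.36 FPKM in G9gl, against 2.13, 1.65 and 1.37 FPKM in WT, with G9gl libraries close together (log2 fold change 0.94 ± 0.14, limma adjusted p = 0.00116). Isg20, an exonuclease that degrades RNA, rose 1.65-fold, with 31.3, 38.7 and 34.6 FPKM in G9gl, against 20.6, 20.4 and 21.04 FPKM in WT (limma adjusted p = 3.50e-04).

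Rsad2 and Cmpk2, neighbours on chromosome 12 whose products work on antiviral nucleotides, did not pass. Rsad2, which encodes viperin, had 1.55, 2.64 and 2.55 FPKM in G9gl, against 0.956, 1.19 and 1.67 FPKM in WT. Its G9gl library 1 lay within the WT range (limma adjusted p = 0.0777), and without that library it passed at a log2 fold change of 0.67 (limma adjusted p = 0.0222). Cmpk2, a mitochondrial nucleotide kinase, had 13.04, 19.04 and 19.7 FPKM in G9gl, against 14.04, 17.99 and 14.1 FPKM in WT, with G9gl library 1 below every WT library (limma adjusted p = 0.537). Samd9l, which restricts viruses and the growth of blood cells, was the only gene of the 44 called lower. It had 55.8, 65.4 and 71.2 FPKM in G9gl libraries 1 to 3, against 97.4, 84.9 and 90.5 FPKM in WT libraries 1 to 3. Every G9gl library was below every WT library, 1.42-fold lower overall (log2 fold change -0.50 ± 0.09, limma adjusted p = 0.00393).

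All 3 membrane restriction factors were higher in G9gl. Ifitm3, which blocks fusion of viruses in endosomes, showed the largest difference of the 44 genes. It had 23.9, 51.6 and 47.7 FPKM in G9gl libraries 1 to 3, against 8.79, 7.14 and 4.82 FPKM in WT libraries 1 to 3. Every G9gl library exceeded every WT library, and library 1 was the lowest of the G9gl libraries (log2 fold change 2.37 ± 0.27, 5.17-fold, limma adjusted p = 3.41e-04). Its relative Ifitm2 had 4.97, 4.32 and 4.07 FPKM in G9gl, against 0.714, 2.26 and 1.88 FPKM in WT, with library 1 the highest of the G9gl libraries (2.16-fold, limma adjusted p = 0.00623). Bst2, which encodes tetherin and holds budding virus on the cell, had 59.97, 64.9 and 60.5 FPKM in G9gl, against 42.2, 43.4 and 52.7 FPKM in WT, with no overlap, a rise of 1.34-fold (limma adjusted p = 0.00743).

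PARP9 and DTX3L form a complex of an ADP-ribosyltransferase relative and a ubiquitin ligase that supports interferon-dependent expression, and PARP14 is a related transferase. Parp9 had 32.5, 38.5 and 36.1 FPKM in G9gl libraries 1 to 3, against 24.96, 27.8 and 27.01 FPKM in WT libraries 1 to 3. It rose 1.33-fold with no overlap (limma adjusted p = 0.00598). Dtx3l had 23.9, 23.4 and 23.4 FPKM in G9gl, against 21.2, 20.7 and 20.1 FPKM in WT, also with no overlap, but its difference was small and did not pass (log2 fold change 0.18 ± 0.07, limma adjusted p = 0.0822). Parp9 and Dtx3l have overlapping exons on opposite strands, and these libraries keep no strand, so fragments of the overlap cannot be told apart. Parp14 had 13.9, 16.96 and 18.9 FPKM in G9gl, against 12.2, 13.7 and 13.8 FPKM in WT, with G9gl library 1 just above the highest WT library (limma adjusted p = 0.0874; 0.0145 without that library).

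Of the nuclear and ubiquitin-ligase factors, 3 of 4 were higher in G9gl. Phf11b, of a family of PHD finger proteins, had 123, 147 and 146 FPKM in G9gl libraries 1 to 3, against 47.3, 53.5 and 59.6 FPKM in WT libraries 1 to 3. All G9gl libraries were far above every WT library (2.57-fold, log2 fold change 1.36 ± 0.10, limma adjusted p = 1.96e-05). Phf11d beside it on chromosome 14 was near the limit of testing, with 1.61, 1.505 and 1.92 FPKM in G9gl, against 0.877, 0.528 and 0.785 FPKM in WT (limma adjusted p = 0.0149), and its call was lost without G9gl library 3 or WT library 2. Trim30a, a negative regulator of NF-kB signalling in mouse, rose 1.64-fold, with 40.6, 49.5 and 53.5 FPKM in G9gl, against 27.99, 27.2 and 30.8 FPKM in WT (limma adjusted p = 0.00108). Sp100, a component of nuclear bodies, was among the most abundant of these genes and was level between groups, with 247, 252 and 237 FPKM in G9gl, against 245, 249.8 and 235 FPKM in WT (log2 fold change 0.01 ± 0.05, limma adjusted p = 0.902).

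None of the 4 Schlafen genes, a family that regulates growth of lymphocytes and restricts viruses, passed the test. They lie together on chromosome 11 (82951349 to 83122670). Slfn2, which keeps lymphocytes quiescent, had 343, 456 and 451 FPKM in G9gl, against 349.5, 336 and 372 FPKM in WT. Its G9gl library 1 was within the WT range and libraries 2 and 3 were above it (limma adjusted p = 0.136; 0.0019 without library 1). Slfn8 had 31.4, 39.6 and 40.3 FPKM in G9gl, against 31.8, 34.7 and 33.2 FPKM in WT, with library 1 of G9gl below every WT library and libraries 2 and 3 above every one (limma adjusted p = 0.315; 0.0297 without library 1). Slfn5 had 7.56, 9.22 and 7.603 FPKM in G9gl, against 7.59, 6.97 and 7.399 FPKM in WT (limma adjusted p = 0.403), and Slfn1 had 1.04, 1.07 and 1.73 FPKM in G9gl, against 1.11, 0.516 and 1.68 FPKM in WT (limma adjusted p = 0.679). The groups of both overlapped.

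Of the remaining genes, 7 of the 8 tested were higher in G9gl. Plscr1, a membrane phospholipid scramblase that also restricts viruses, had 19.8, 9.12 and 10.8 FPKM in G9gl libraries 1 to 3, against 3.11, 3.36 and 3.25 FPKM in WT libraries 1 to 3. Library 1 was the highest of the G9gl libraries, the opposite of Ifitm3, and all 3 were above every WT library (log2 fold change 1.68 ± 0.22, 3.198-fold, limma adjusted p = 7.50e-04). Lgals3bp, a secreted glycoprotein, rose 2.86-fold, with 19.6, 30.8 and 30.3 FPKM in G9gl, against 8.31, 9.02 and 8.398 FPKM in WT (limma adjusted p = 1.52e-04). Ly6a, which encodes the surface antigen Sca-1, rose 1.598-fold at a high level, with 511, 653 and 656 FPKM in G9gl, against 359.9, 408 and 364 FPKM in WT (limma adjusted p = 0.00108). Xaf1, which promotes cell death, rose 1.62-fold, with 16.96, 22.3 and 22.1 FPKM in G9gl, against 11.9, 12.4 and 12.2 FPKM in WT (limma adjusted p = 0.00168). Tor3a, a torsin ATPase, rose 1.57-fold, with 52.1, 73. and 68.6 FPKM in G9gl, against 37.8, 41.9 and 41.3 FPKM in WT (limma adjusted p = 0.00323). In each of these genes the groups did not overlap. Ifi35 was the smallest of the calls and the most even, with 105, 103 and 107 FPKM in G9gl, against 82.99, 75.1 and 83.8 FPKM in WT (1.298-fold, limma adjusted p = 0.00203).

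Rtp4, a chaperone of receptor transport that also binds viral RNA, had 19.4, 44.2 and 42.7 FPKM in G9gl libraries 1 to 3, against 18.8, 16.8 and 18.4 FPKM in WT libraries 1 to 3. Library 1 of G9gl was next to the WT libraries, and the call at 1.81-fold (limma adjusted p = 0.0391) was lost without any 1 of the other 5 libraries (limma adjusted p 0.0863 to 0.116) and with FPKM rescaled to a common total. Ifi27l2a, the most abundant gene of the set, had 705, 1349.7 and 1302 FPKM in G9gl, against 694, 695 and 691 FPKM in WT. The WT libraries were nearly equal, G9gl library 1 was barely above them, and libraries 2 and 3 were well above. The difference narrowly missed the threshold (log2 fold change 0.63 ± 0.20, limma adjusted p = 0.0503). It passed without library 1 (log2 fold change 0.93, limma adjusted p = 4.08e-06). With all libraries kept, it also passed with library weights, a pseudocount of 5 or a filter at 5 FPKM (limma adjusted p = 0.00943, 0.0492 and 0.0472). It did not pass with robust variance estimation, quantile normalization or no filter on low values (limma adjusted p = 0.202, 0.19 and 0.17). With FPKM rescaled to a common total it did not pass either (limma adjusted p = 0.0882). Ifi44 was under the level needed for a test, with 0.524, 1.13 and 0.789 FPKM in G9gl, against 0.0669, 0.207 and 0.287 FPKM in WT, and its groups did not overlap.

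**Figure D3:**
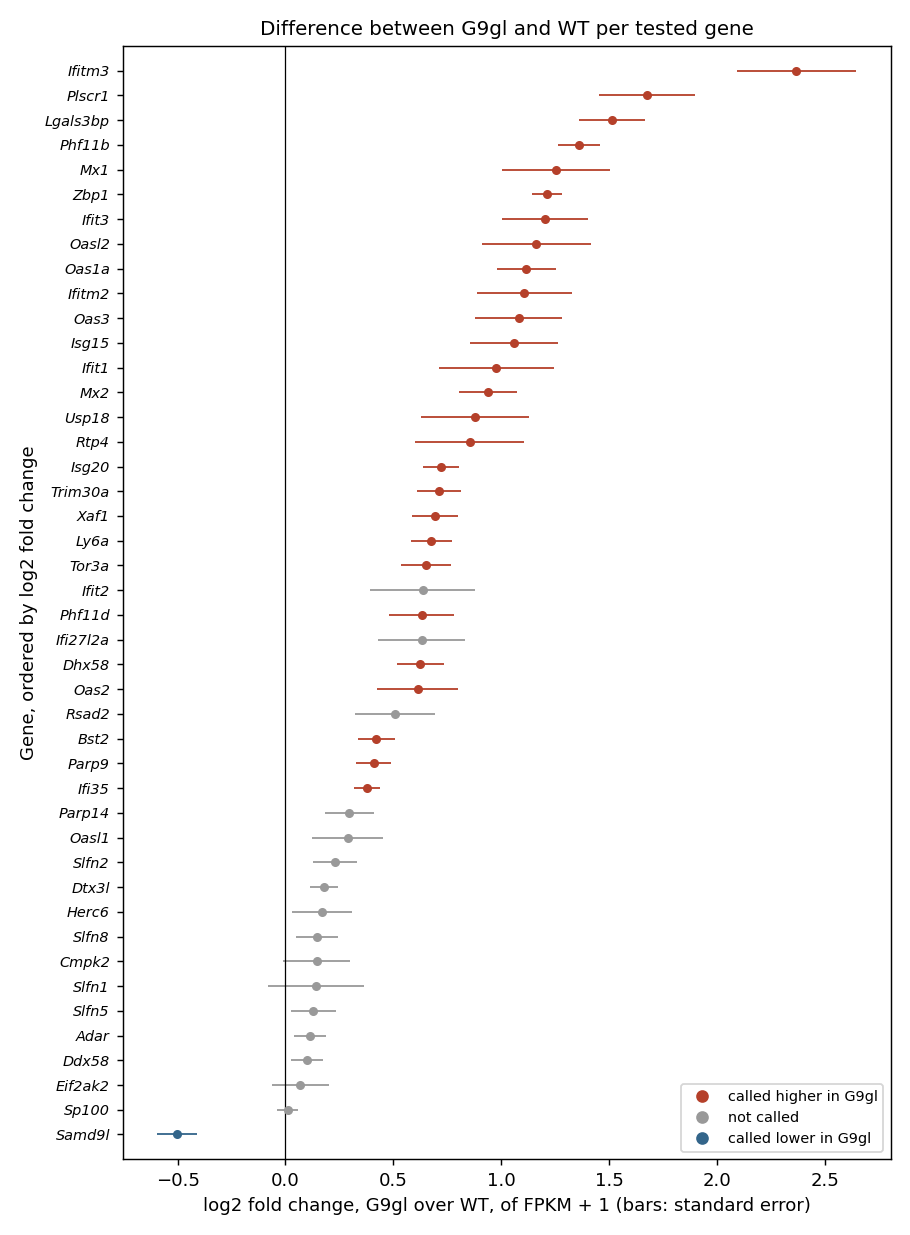
Log2 fold change of FPKM + 1, G9gl over WT, for the 44 tested genes in order of size, with the standard error from limma as bars (red, called higher; grey, not called; blue, called lower). Ifitm3 stands at 2.37 at the top and Samd9l at -0.50 at the bottom, and the bars of Usp18, Rtp4, Ifit1 and Ifit2 are wider than those of Zbp1 and Ifi35.

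The wide bars of Usp18, Rtp4, Ifit1 and Ifit2 went with low values in G9gl library 1, and that of Plscr1 with a high one. The low values were a pattern picked out after the values were seen and so given with no test. On the log2(FPKM + 1) scale, library 1 was a median of 0.35 below the mean of G9gl libraries 2 and 3 over the 44 genes, against 0.005 above it over all tested genes. It was the lowest of the 3 G9gl libraries for 36 of the 44 genes (81.8%), against 35.7% of all tested genes. For 15 of the 44 (34.1%) it was lower by 0.5 or more, against 187 of all tested genes (1.85%). The gap was -1.13 for Ifit1, -1.12 for Rtp4, -1.11 for Usp18, -1.10 for Oasl2 and -1.02 for Ifitm3. It was -0.02 for Zbp1, -0.08 for Mx2 and -0.06 for Bst2, whose G9gl libraries were level. Plscr1 was 0.92 higher in library 1. G9gl libraries 2 and 3 differed from each other by a median of 1.06 times over the tested genes.

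Among 6334 tested genes of at least 10 FPKM in G9gl, 12 were at least 0.8 lower in library 1, and 6 of the 12 were interferon-stimulated genes of this set, namely Rtp4, Usp18, Oasl2, Ifitm3, Ifi27l2a and Ifit3. Ly6c2, a surface antigen of the same family as Ly6a and no member of the set, had 19.2, 54.1 and 42.5 FPKM in G9gl, against 13.3, 13.3 and 10.99 FPKM in WT. In the other direction 30 genes were at least 0.8 higher in library 1, of which 1 was of this set (Plscr1). They were mixed, with the activation genes Nr4a1, Cd69, Dusp1 and Socs3, the globin gene Hba-a1 and the small nucleolar RNA genes Snora28 and Snora81. Axin1, Rcc2 and Zdhhc18, called lower in G9gl, were also among the 30. What these genes share was not tested. Leaving out G9gl library 1 gave 34 genes of the set called higher, all 27 of the main result and 7 more: Ifit2, Oasl1, Rsad2, Parp14, Slfn2, Slfn8 and Ifi27l2a. Leaving out any 1 of the other 5 libraries gave 22 or 23. Over all tested genes, 11.2% were called higher without G9gl library 1, and 8.17% to 9.78% without any 1 of the others. With all libraries kept but weighted by their spread, 32 were called, and Ifit2, Rsad2, Parp14, Slfn2 and Ifi27l2a were the 5 gained. With these weights 13.2% of all tested genes were called higher.

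**Figure D4:**
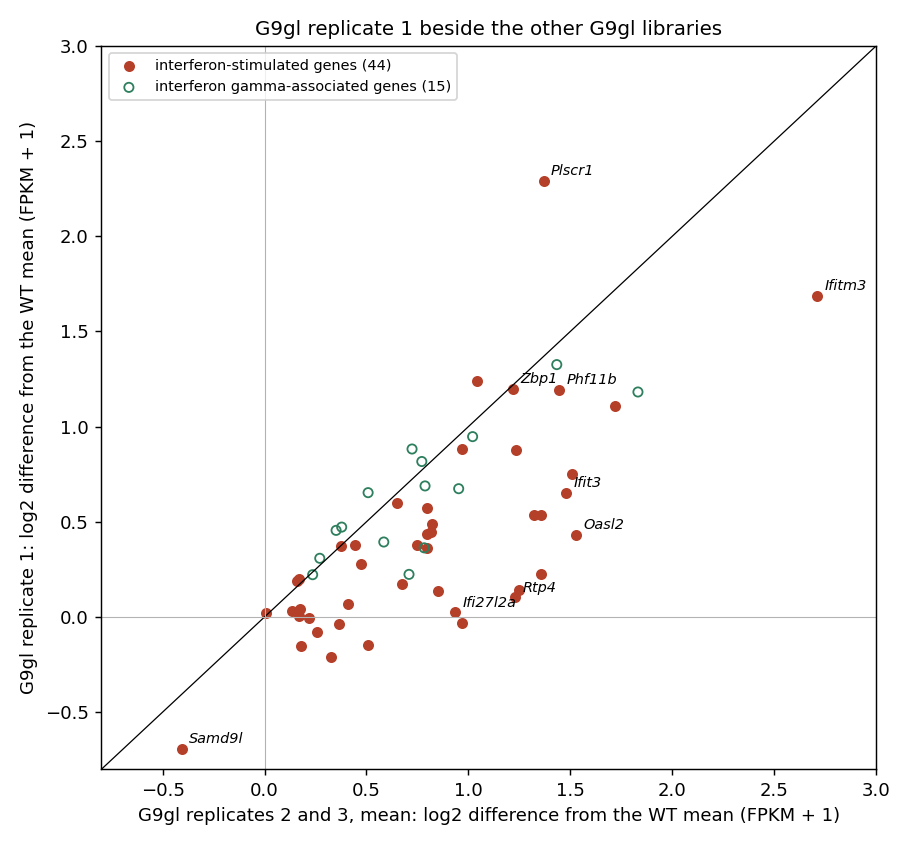
Log2 difference from the WT mean (FPKM + 1) in G9gl library 1 on the vertical axis, against the mean of G9gl libraries 2 and 3 on the horizontal axis, for the 44 tested interferon-stimulated genes (filled red) and 15 interferon gamma-associated genes (open green); the diagonal marks equal levels. Rtp4 and Ifi27l2a lie near 0 on the vertical axis, Zbp1 lies on the diagonal, and Plscr1 lies above it.

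Genes of the interferon pathway outside the set were read from written lists, and 24 of the 52 tested were higher and 3 lower in G9gl. Among all tested genes 11.8% were higher and 11.6% lower. Of the 24, 14 were in the list of interferon gamma-associated genes described last. None of 8 ligand genes reached the level for a test, and Ifna2, Ifna4, Ifna5, Ifnl2 and Ifnl3 were listed at 0 in every library. Ifnb1 did not exceed 0.488 FPKM, and Ifng had 0.558, 1.297 and 0.305 FPKM in G9gl, against 0.466, 0 and 0 FPKM in WT. Of 7 receptor and kinase genes, Ifnar2 was higher and Jak2, a kinase used by the interferon gamma receptor, was lower. Ifnar2 had 50.2, 54.8 and 52.1 FPKM in G9gl, against 42.97, 45.2 and 44.1 FPKM in WT (1.18-fold, limma adjusted p = 0.0194); that call was lost with FPKM rescaled to a common total and without G9gl library 2 or 3 or WT library 1 or 3. Jak2 had 14.4, 10.3 and 17.2 FPKM in G9gl, against 32.5, 28.3 and 23.3 FPKM in WT, and fell 1.96-fold with no overlap (limma adjusted p = 0.00345). Ifnar1 did not pass (limma adjusted p = 0.204).

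Among the transcription factor genes, Irf1, Irf8 and Irf9 were called higher and Irf5 lower. Irf9, a DNA-binding factor of the type I pathway, rose 1.35-fold (limma adjusted p = 0.00244), Irf1 rose 1.69-fold (limma adjusted p = 7.26e-05) and Irf8 rose 1.42-fold (limma adjusted p = 1.45e-04). Irf5 averaged 172 ± 25.9 FPKM in G9gl and 244 ± 13.4 FPKM in WT (SD, n = 3 each; limma adjusted p = 0.00565). Irf7, the main amplifier of type I interferon production, had 40.8, 75.7 and 63.8 FPKM in G9gl, against 40.7, 42.1 and 34.9 FPKM in WT. G9gl library 1 lay among the WT libraries, as for Ifit2, and the difference did not pass (limma adjusted p = 0.057). Without that library Irf7 passed at a log2 fold change of 0.81 (limma adjusted p = 5.07e-04), and it also passed with library weights (limma adjusted p = 0.0147). It did not pass with robust variance estimation or with no filter on low values (limma adjusted p = 0.149 and 0.173). Stat2 did not pass either (limma adjusted p = 0.913).

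Of 7 negative regulators, Socs1 and Samhd1 were higher, beside 11.8% of all tested genes. Socs1, an inhibitor of JAK kinases, had 22.6, 23.6 and 22.7 FPKM in G9gl libraries 1 to 3, against 4.79, 5.93 and 5.32 FPKM in WT libraries 1 to 3. Its G9gl libraries were level and 3.79-fold above WT (log2 fold change 1.92 ± 0.09, limma adjusted p = 2.73e-06). Samhd1, a nucleotide hydrolase, rose 1.27-fold (limma adjusted p = 0.00404). Socs3, which was named after its values were seen, had 61.5, 13.2 and 14.8 FPKM in G9gl, against 8.78, 7.65 and 10.5 FPKM in WT, with library 1 far above the other G9gl libraries. Every G9gl library was above every WT library, but the difference did not pass (limma adjusted p = 0.0747). It passed without G9gl library 1 (log2 fold change 0.60, limma adjusted p = 0.0103) and without G9gl library 2 (log2 fold change 1.66, limma adjusted p = 0.0314). With robust variance estimation it did not pass (limma adjusted p = 0.264).

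Among 14 tested genes of nucleic acid sensing upstream of interferon, Tlr7, Tmem173 and Ikbke were higher and Traf3 was lower. Of all tested genes 11.8% were higher and 11.6% lower. Tlr7, the endosomal receptor for single-stranded RNA, had 15.7, 20.2 and 17.9 FPKM in G9gl, against 12.2, 11.3 and 11.3 FPKM in WT (1.498-fold, limma adjusted p = 0.00277). Tmem173, which encodes the DNA-pathway adaptor STING, rose 1.25-fold (limma adjusted p = 0.00418), and the kinase gene Ikbke rose 1.802-fold (limma adjusted p = 0.00149). Traf3 fell 1.19-fold (limma adjusted p = 0.0339), a call lost without any 1 library.

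Of 15 tested genes most associated with interferon gamma, 14 were higher in G9gl, beside the 11.8% of all tested genes. Gbp7, a guanylate-binding GTPase, had 10.98, 12.04 and 11.8 FPKM in G9gl libraries 1 to 3, against 3.63, 3.42 and 4.33 FPKM in WT libraries 1 to 3. It rose 2.63-fold with G9gl libraries close together (limma adjusted p = 2.87e-05). Tap1, which carries peptides to MHC class I, rose 1.72-fold (limma adjusted p = 4.50e-05), the transactivator gene Nlrc5 1.99-fold (limma adjusted p = 6.60e-05) and the immunoproteasome subunit gene Psmb9 1.71-fold (limma adjusted p = 7.26e-05). Across these 15 genes G9gl library 1 was a median of 0.073 below the other G9gl libraries, and none was at or below the highest WT library there. Library 1 was the lowest G9gl library for 8 of the 15 (53.3%), against 35.7% of all tested genes, and the highest for 5. It was lower by 0.5 or more for 1 of them, Gbp6 (gap -0.65). Among the 44 genes of the set, 14, Samd9l included, were at or below the highest WT library in G9gl library 1. Of all 10122 tested genes, 6653 were. The difference between these lists was not tested, since libraries of 1 group have no label that divides them.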

How the data were processed

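RNA was measured in 6 libraries of sorted splenic Fo B cells, 3 G9gl and 3 WT, with groups taken from the labels. Total RNA was isolated with Trizol, per the labels' protocols, then amplified by SMART-Seq HT and tagmented by Nextera, which keeps no strand. The tools were Cufflinks 2.2.1, SAMtools 0.1.19, Bowtie2 2.2.3 and TopHat2 2.0.13 with the build mm10, per the submitters' processing notes. The annotation is not given in the sources used here, nor is any scaling across libraries. The authors deposited 1 FPKM value per gene and library; this unit was inferred from Cufflinks and from decimals in the tables. FPKM divides by all mapped fragments, so abundant transcripts shift the rest. The FPKM totals were 657759 to 671533 in G9gl and 603054 to 611557 in WT. Depth, estimated from the FPKM steps that 1 fragment gives, was about 9460000 to 10990000 fragments per library, and 1 FPKM over 2 kb of transcript then equals 18.9 to 22.0 fragments. No pair of libraries shared more than 2 identical values above 0.

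A gene was tested if 3 or more of the 6 libraries had 1 FPKM or more. The test was limma 3.58.1 in R 4.3.3 (lmFit, eBayes with trend) on log2(FPKM + 1), fitted on genotype alone, and p-values of the 10122 genes were adjusted after Benjamini-Hochberg, with calls at 0.05. The code was tested on simulated data. FPKM means carry the SD (n = 3), and log2 fold changes the SE of the fit. The 46 genes, the pathway lists and the marker lists were chosen with earlier results of these data known. Every gene of the set is named, with values by library in full for the largest and smallest calls of each role and for those not called; from each other list all calls are named where 5 or fewer, otherwise up to 4 with the smallest p. Gene positions are those of GENCODE vM21 (GRCm38, the same build as mm10). Promoters are from RefSeq. Of the pathway lists, 1 gene is not reported here. The 16 alternatives covered the pseudocount, the filter, scaling, the spread estimate, the replicate block and leaving out each library.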

Additional observations from a re-analysis of the deposited data

How the results depend on the processing

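Over the 16 alternatives, 22 to 34 genes of the set were called higher and 1 lower in each, and their median log2 fold change was 0.49 to 0.80. Of all tested genes, 5.07% to 13.2% were called higher. The direction and call of 26 of the 44 genes, 21 of them called higher, held under every alternative that tested them. The filter at 5 FPKM tested 34 of the 44 genes and so left out Mx1, Mx2, Ifitm2 and Herc6 of the 26. Calls lost at least once were those of Ifit1, Oas2, Oasl2, Usp18, Phf11d and Rtp4; with no filter on low values all of these but Phf11d were lost, and robust variance estimation also ended the calls of Usp18 and Rtp4. Rescaling each library to a common FPKM total moved the median of all tested genes by -0.13. It gave 730 genes called higher and 2493 lower over all tested genes, against 1191 and 1174, and 9 pathway genes lower, against 3. Under it 25 genes of the set were called higher, and the log2 fold changes of Ddx58 (-0.0273), Eif2ak2 (-0.0474), Adar (-0.0163) and Sp100 (-0.12) turned negative; Sp100 was also -0.0426 with quantile normalization. Leaving out each library gave 718 to 1172 genes lower over all tested genes, the fewest without WT replicate 2, and log2 fold changes of -0.0706 to 0.18 for Eif2ak2, -0.0138 to 0.034 for Sp100 and -0.0721 to 0.34 for Slfn1; the cause was not tested.

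Deviations of same-numbered libraries correlated at 0.099, -0.069 and 0.021, and those of differently numbered ones at -0.153 to 0.157. With 3 libraries per group, these values cannot settle whether the replicate numbers pair the libraries. With the replicate block, 28 genes of the set were called higher, and 1044 higher and 988 lower over all tested genes; the block brought Ifi27l2a (limma adjusted p = 0.035), Irf7 (0.0435) and Socs3 (0.0486) under the threshold and ended the call of Traf3. Genes near 1 FPKM, such as Ifih1, Ifi44, Phf11d and Slfn1, are limited by depth. Groups of 3 libraries are too small for a test of single outlying libraries.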
